A study of Musculus with 2 samples.

Results

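Natural killer (NK) cells were examined in single-cell RNA sequencing of the stromal vascular fraction of subcutaneous white adipose tissue (sWAT), the cells that remain once mature fat cells have been removed. Barcodes were kept with at least 500 genes detected and no more than 10% of their unique molecular identifiers (UMIs, each standing for 1 captured transcript) from mitochondrial genes. NK cells were chosen by measured UMIs, so the genes used for the choice are described below without a test. An NK cell was a kept barcode with 5 or more UMIs summed over the cytotoxic genes Nkg7, Gzma, Prf1 and Klre1, with at least 2 of these 4 genes detected. It also had at most 1 UMI summed over Cd3d, Cd3e and Cd3g, fewer than 10 over C1qa, C1qb and C1qc, and fewer than 10 of Dcn, which kept out T cells, macrophages and stromal cells. This gave 155 NK cells among 24090 kept cells of 26637 barcodes, 93 of them control and 62 LPCAT3-AKO cells. T cells, the closest lymphocytes for comparison, passed the same filter and had 3 or more Cd3 UMIs, which gave 119 control and 153 LPCAT3-AKO cells.

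The study deposited 1 library of each group, both from mice. The control library has the genotype WT and the LPCAT3-AKO library the genotype LPCAT3 knockout. The labels put the mice at 5 weeks of age and the text of the series at 2 months with both groups CD-fed, so the age is unsettled. The sources used here do not give the Cre driver, the strain, the sex, the 10x chemistry or the number of mice pooled into a library. Each genotype has 1 library, so genotypes could not be tested, and every difference between the libraries describes that pair, with 95% intervals that cover counting error only.

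NK cells are innate lymphocytes that kill stressed, infected or transformed cells by releasing perforin and granzymes, without a rearranged antigen receptor. Their activity follows a balance between activating receptors, such as NKp46 and NKG2D, and inhibitory receptors of the Ly49 and NKG2 families that read MHC class I on other cells. They depend on interleukin-15, read through the interleukin-2 receptor beta chain, and answer interleukin-12 and interleukin-18 with interferon-gamma and chemokines. In adipose tissue they share the niche with the related type 1 innate lymphoid cells (ILC1), and their interferon-gamma is known to act on adipose macrophages.

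The NK cells were shallower than the fraction as a whole. They held a median of 2645 UMIs and 1271 genes per cell in the control and 2760.5 UMIs and 1345 genes in the LPCAT3-AKO library, against medians of 8366.5 and 8867 UMIs over all kept cells. Summed over the NK cells, 303801 UMIs stood behind the control values and 235692 behind the LPCAT3-AKO values. A gene with no UMI could therefore lie at up to 9.87 UMIs scaled to 1000000 per sum (CPM) in control and 12.7 CPM in LPCAT3-AKO cells, taking 3 counts as the limit. The 2 libraries shared 58 barcodes. Of the NK barcodes, 1 is also listed by the other library, and 0 barcodes were NK cells in both.

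The cytotoxic genes that chose the cells also show how they vary among themselves. The cytotoxic sum ran from 5 to 154 UMIs in the control, with a median of 21, and from 5 to 131 in the LPCAT3-AKO library, with a median of 18. All 4 genes were detected in 48 control and 31 LPCAT3-AKO cells, 3 in 34 and 20, and 2 in 11 and 11. Just inside the threshold, at a sum of 5 or 6, lay 5 control and 7 LPCAT3-AKO cells, and just outside it, at 3 or 4, lay 5 and 3. Granzyme A (Gzma), a serine protease of the cytotoxic granule, had a median of 11 UMIs per control NK cell, between 0 and 116, and of 7 per LPCAT3-AKO cell, between 0 and 97. It was detected in 87 of 93 and in 50 of 62 cells. Perforin (Prf1), which opens the target membrane, had 602 CPM in control and 518 CPM in LPCAT3-AKO NK cells, and the granule protein gene Nkg7 had 1988 and 1701 CPM. The receptor gene Klre1 had 770.2 and 636 CPM.

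Markers that the rule did not use bear on the name. Xcl1, the chemokine that draws cross-presenting dendritic cells, was detected in 52 of 93 control and 40 of 62 LPCAT3-AKO NK cells. Its level was 750.5 CPM in control and 742 CPM in LPCAT3-AKO NK cells, against 76.1 and 108 CPM in T cells. Ncr1, which encodes NKp46 and is the classic NK receptor of the mouse, was detected in 49 and 32 NK cells. With cells thinned to 2000 UMIs it was 40.0% of control and 40.4% of LPCAT3-AKO NK cells, 3.60% and 3.52% of T cells, and 0.0% of Dcn-rich stromal cells and of C1q-rich macrophages in either library. Trac, the constant part of the T cell receptor alpha chain, was seen in 3 of 93 and 1 of 62 NK cells. Cd3 UMIs were seen in 3 and 3, but the rule itself capped them, so they do not bear on the name. Trbc1, the constant region of the receptor beta chain, was transcribed in both cell types, with 599 and 509 CPM in NK cells and 431 and 501 CPM in T cells. Trdc, the delta chain constant region, had 65.8 and 46.7 CPM in NK cells and 81.3 and 89.0 CPM in T cells. It was detected in 15 of 93 control and 11 of 62 LPCAT3-AKO NK cells. With cells thinned to 2000 UMIs the shares were 11.25% and 15.8%, against 8.11% and 8.45% of T cells. Of 9 gamma-delta T cell markers, 5 were detected in NK cells. Tcrg-C1 and Tcrg-C2 had 0 UMIs in the NK cells of either library. Tcrg-C4 was detected in 2 control and 3 LPCAT3-AKO NK cells, and Trdv4 in 4 and 5.

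Some of these cells carried many UMIs of another cell type. After the values had been seen, NK and T cells with 20 or more UMIs of any 1 marker list of another class were set apart as mixed cells. They were 6 of the 93 control and 5 of the 62 LPCAT3-AKO NK cells and held 17.2% and 22.4% of the NK UMIs. In the control they were 2 cells with dendritic cell markers (166 and 640 UMIs), 1 with endothelial markers (190 UMIs), 1 with skeletal muscle genes (1085 UMIs) and 2 with stromal markers. In the LPCAT3-AKO library they were 4 cells with dendritic cell markers (34, 406, 466 and 519 UMIs) and 1 with stromal markers (20 UMIs). Summed over 13 dendritic cell markers, NK cells had 3183 CPM in control and 6504 CPM in LPCAT3-AKO cells, and 580.2 and 585 CPM without the mixed cells, with Xcr1, Clec9a and Siglech at 0 in both. Among the T cells, 21 control and 19 LPCAT3-AKO cells were mixed and held 38.8% and 35.0% of the UMIs. Low counts of other cell types were not limited to the mixed cells. NK cells with no C1q and no Dcn UMI numbered 30 of 93 in the control and 21 of 62 in the LPCAT3-AKO library. Without the mixed cells, 12 stromal markers still summed to 1291.5 and 1422 CPM in NK cells. The source of these UMIs was not tested. Main results below are also given without the mixed cells where that ends a call.

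NK cells and T cells were compared on UMIs summed per cell type and library with edgeR's quasi-likelihood test, the library as block and Benjamini-Hochberg adjustment. Many activating and inhibitory NK receptors, some of their adaptors (Tyrobp and Fcer1g among them), Il2rb, Il18r1 and Il18rap, some granule genes (Gzmb among them) and the chemokines Ccl3, Ccl4 and Ccl5 were higher in NK cells, and T cell receptor genes, Il7r and Bcl11b higher in T cells. Of 5747 genes tested outside the cell rules, 165 (2.87%) were higher in NK cells and 194 (3.38%) higher in T cells at an adjusted p under 0.05. The median log2 fold of all genes was -0.0079. Without the mixed cells the counts were 266 and 319, and DESeq2 called 43 and 20. The cells were divided by cytotoxic and Cd3 genes, so genes that go with those were bound to differ. The n is 2 libraries per cell type, with 1 residual degree of freedom and spread borrowed across genes.

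Among activating receptors outside the Ly49 family, 6 of 11 tested were higher in NK cells and 1 higher in T cells, with a median log2 fold of 2.90. Ncr1 had 283 CPM in control and 297 CPM in LPCAT3-AKO NK cells, and 22.5 and 23.7 CPM in T cells. Both NK sums lay far above both T sums (log2 fold 3.54, SE 0.26, adjusted p = 6.08e-05). Klrk1, which encodes NKG2D, a receptor for stress-induced ligands, had 639 and 569 CPM in NK cells and 67.5 and 83.0 CPM in T cells (log2 fold 2.90, SE 0.21, adjusted p = 5.46e-05). The NK1.1 gene Klrb1c had 171 and 182 CPM in NK cells and 13.8 and 13.3 CPM in T cells. Its relative Klrb1f had 92.2 and 127 CPM in NK cells and 1.73 and 4.45 CPM in T cells, which is 3 or fewer UMIs per library of T cells. Cd244a, which encodes the receptor 2B4, had 109 and 110.3 CPM in NK cells and 13.8 and 11.9 CPM in T cells. Slamf6 was the member higher in T cells, with 16.5 and 12.7 CPM in NK cells and 53.6 and 83.0 CPM in T cells (log2 fold -2.24, adjusted p = 0.0201). Cd226, Fcgr3, Slamf7 and Cd160 did not pass the test. The Fc receptor gene Fcgr3, for example, had 46.1 and 59.4 CPM in NK cells and 50.2 and 62.3 CPM in T cells.

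Among genes listed as inhibitory receptors and checkpoints, the highest over T cells were of the Ly49 family (Klra), most of which recognise MHC class I. The family is mixed: Klra4 and Klra8, counted in this list, encode the activating receptors Ly49D and Ly49H. Of 13 genes of the list tested, 8 were higher in NK cells and 1 higher in T cells, with a median log2 fold of 2.53. Klra4 had 665 CPM in control and 318 CPM in LPCAT3-AKO NK cells and 6.92 and 7.41 CPM in T cells (log2 fold 5.89, SE 0.32, adjusted p = 8.69e-06). Klra7 had 484 and 373 CPM in NK cells and 12.1 and 8.90 CPM in T cells (log2 fold 5.22). Klra9 had 207 and 182 CPM in NK cells against 5.19 and 8.90 CPM in T cells, and Klra1 171 and 132 CPM against 15.6 and 10.4 CPM. Klra3 and Klra8, at 88.9 and 38.2 CPM and at 69.1 and 33.9 CPM in NK cells, also passed. Klra, Klrb1 and Klrc genes are close copies of each other, so reads may have been split among neighbours and the share of each member is uncertain. Klra4 was seen in 57 of 93 control and Klra8 in 17 of 93 control NK cells, with 15 cells holding both, and in the LPCAT3-AKO library the numbers were 30, 6 and 5 of 62. CD94, encoded by Klrd1 and the partner of NKG2A, had 622 and 670.4 CPM in NK cells and 86.5 and 125 CPM in T cells (log2 fold 2.53, adjusted p = 8.53e-05). NKG2A itself, Klrc1, had 85.6 and 63.6 CPM in NK cells and 13.8 and 14.8 CPM in T cells. The checkpoint gene Ctla4 (6.58 and 25.5 CPM in NK cells, 53.6 and 114 CPM in T cells) was the member higher in T cells. Havcr2 had 0 UMIs in NK cells, and Tigit, Lag3 and Pdcd1 were at or under the limit of 3 counts.

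**Figure D1:**
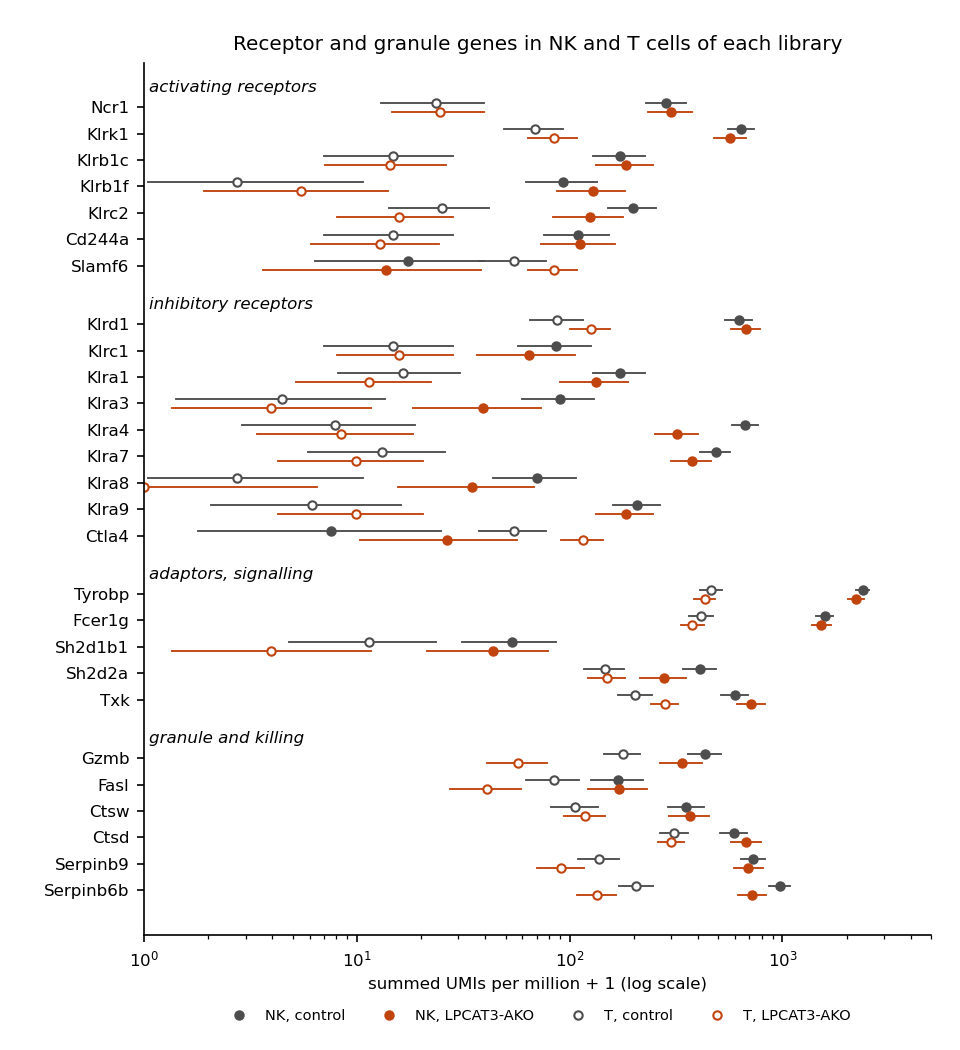
Level of receptor, adaptor and granule genes in NK cells (filled points) and T cells (open points) of the control (grey) and LPCAT3-AKO (orange) library, as summed CPM plus 1 on a log axis, with exact 95% Poisson intervals that cover counting error only. Every gene shown passed the test between cell types, and Slamf6 and Ctla4 are the pair that was higher in T cells. Klra4 and Klra8, drawn under inhibitory receptors, encode activating Ly49 receptors.

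Of 14 adaptor and proximal signalling genes, 5 were higher in NK cells and 0 higher in T cells. Tyrobp, which encodes the adaptor DAP12, had 2383 CPM in control and 2211 CPM in LPCAT3-AKO NK cells, and 462 and 429.9 CPM in T cells (log2 fold 2.27, SE 0.13, adjusted p = 8.69e-06). Fcer1g, the Fc receptor gamma chain that carries NKp46 signals, had 1577 and 1523 CPM in NK cells and 413 and 377 CPM in T cells (log2 fold 1.88). The kinase gene Txk had 596 and 713 CPM in NK cells and 202 and 279 CPM in T cells, and Sh2d2a and the EAT-2 gene Sh2d1b1 also passed. The shared kinase Lck did not pass, with 237 and 221 CPM in NK cells and 235 and 191 CPM in T cells.

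Granule and killing genes outside the rule were higher in NK cells for 6 of 13 tested and higher in T cells for 0. Granzyme B (Gzmb) had 431 and 335 CPM in NK cells and 176 and 56.3 CPM in T cells (log2 fold 1.74, SE 0.29, adjusted p = 0.00661). Without the library block its adjusted p was 0.0662. Fas ligand (Fasl), the death ligand, had 168 and 169.7 CPM in NK cells and 83.0 and 40.03 CPM in T cells (log2 fold 1.39, adjusted p = 0.0272, and 0.0560 without the library block). The serpins that shield a killer cell from its own granzymes were among the 6: Serpinb9 had 727 and 692 CPM in NK cells and 137 and 90.4 CPM in T cells (log2 fold 2.57). Serpinb6b had 968 and 721 CPM in NK cells and 204 and 133 CPM in T cells (log2 fold 2.24). The proteoglycan of the granule core, Srgn, did not pass, with 806 and 959 CPM in NK cells and 1200.3 and 984 CPM in T cells.

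Of 10 cytokine and chemokine genes tested, 4 were higher in NK cells and 1 higher in T cells. Ccl5, which attracts T cells and monocytes, had 10652 CPM in control and 6254 CPM in LPCAT3-AKO NK cells, and 2819 and 1334 CPM in T cells (log2 fold 1.98, SE 0.09, adjusted p = 6.45e-06). Ccl4 had 1178 and 492 CPM in NK cells and 119 and 83.0 CPM in T cells (log2 fold 2.86, adjusted p = 8.05e-05). Ccl3 had 217 and 89.1 CPM in NK cells and 34.6 and 11.9 CPM in T cells, and Xcl1 was the other gene called. Ltb, a lymphotoxin chain, was higher in T cells, at 102 and 97.6 CPM in NK cells and 246 and 305 CPM in T cells. Interferon-gamma (Ifng) did not separate the cell types, with 138 and 63.6 CPM in NK cells and 131 and 26.7 CPM in T cells (log2 fold 0.36, SE 0.34, adjusted p = 0.674).

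Receptors for the cytokines that sustain and arm NK cells stood above T cells, and the interleukin-7 receptor below. Of 15 tested, 4 were higher in NK cells and 2 higher in T cells. Il2rb, the beta chain that binds interleukin-15, had 1172 and 1239 CPM in NK cells and 296 and 309.8 CPM in T cells (log2 fold 1.90, SE 0.15, adjusted p = 9.21e-05), and was detected in 90 of 93 and 60 of 62 NK cells. Il18rap, a chain of the interleukin-18 receptor, had 313 and 272 CPM in NK cells and 95.1 and 60.8 CPM in T cells (log2 fold 1.82), and its partner Il18r1 also passed. Il7r had 13.2 and 50.9 CPM in NK cells and 315 and 391 CPM in T cells (log2 fold -3.64, SE 0.34, adjusted p = 0.000233). It was detected in 4 control and 3 LPCAT3-AKO NK cells. The Il15 gene itself was scarce in NK cells: it had 31.0 and 26.6 CPM in C1q-rich cells and 3.29 and 4.24 CPM in NK cells, which is 1 UMI in each library. Interleukin-18 (Il18) had 107 and 88.9 CPM in Dcn-rich cells and 6.58 and 21.2 CPM in NK cells.

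Transcription factors divided evenly, with 6 of 22 tested higher in NK cells and 6 higher in T cells. Irf8 had 1086 CPM in control and 942 CPM in LPCAT3-AKO NK cells, and 57.1 and 51.9 CPM in T cells (log2 fold 4.12, SE 0.19, adjusted p = 6.45e-06). Eomes, a T-box factor that marks NK cells rather than ILC1, had 349 and 182 CPM in NK cells and 27.7 and 17.8 CPM in T cells (log2 fold 3.42, SE 0.27, adjusted p = 9.21e-05). Its relative Tbx21, which encodes T-bet, had 158 and 144 CPM in NK cells and 45.0 and 25.2 CPM in T cells (log2 fold 2.02). Runx3, Bhlhe40 and Id2 were the other factors higher in NK cells. Id2, which restrains E proteins, passed narrowly (log2 fold 0.72, adjusted p = 0.0499) and not without the library block (adjusted p = 0.106). Bcl11b, which guards T cell identity, had 13.2 and 21.2 CPM in NK cells and 232 and 242 CPM in T cells (log2 fold -3.89, SE 0.33, adjusted p = 0.000127). Ikzf2, Rora, Lef1, Tcf7 and Zeb2 were the other factors higher in T cells. Zeb2 depended on the mixed cells: it had 125 and 144 CPM in NK cells and 303 and 279 CPM in T cells, and without mixed cells its log2 fold was 0.82 with an adjusted p of 0.0763.

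**Figure D2:**
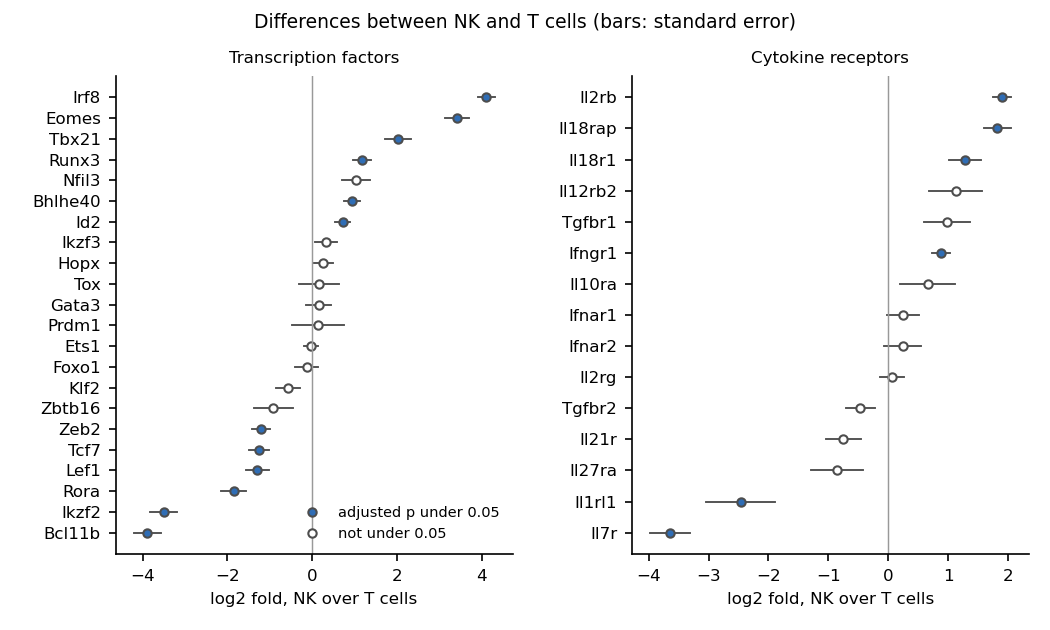
Fitted log2 fold of NK over T cells for each transcription factor (left) and cytokine receptor (right) tested, with bars of 1 standard error and filled points where the edgeR adjusted p was under 0.05. Irf8, Eomes and Tbx21 lie at the NK end and Bcl11b, Ikzf2 and Il7r at the T cell end.

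Receptors that guide cells into tissue also differed. Of 16 homing and adhesion genes, 3 were higher in NK cells, among them the chemokine receptor Ccr2 (1030.3 and 853 CPM, against 394 and 520.4 CPM in T cells, log2 fold 0.96) and the selectin ligand Selplg. The lymph node homing receptor Ccr7 and the sphingosine receptor S1pr1, which leads lymphocytes out of tissue, were higher in T cells. S1pr1 had 42.8 and 8.49 CPM in NK cells and 145 and 126 CPM in T cells (log2 fold -2.44, adjusted p = 0.00823). The integrin DX5, Itga2, had 122 and 157 CPM in NK cells and 19.0 and 17.8 CPM in T cells (log2 fold 2.81, adjusted p = 0.00141).

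Among the 15 highest log2 folds at 50 CPM or more in NK cells, 5 were Klra genes and 2 Klrb1 genes, and they also held Ncr1 and Irf8. Phactr3, a regulator of protein phosphatase and actin, had 72.4 and 29.7 CPM in NK cells and 0 UMIs in T cells, at least 22.4-fold higher over both libraries with 3 counts as the T cell limit. Rab27b, of the family that docks secretory granules, had 79.0 and 148 CPM in NK cells and 3.46 and 5.93 CPM in T cells (log2 fold 4.43, SE 0.46, adjusted p = 0.000459). Carbonic anhydrase 2 (Car2) had 211 and 204 CPM in NK cells and 10.4 and 14.8 CPM in T cells (log2 fold 3.91). When 2 Cd3 UMIs were enough for a T cell, Car2 did not pass (log2 fold 1.33, edgeR adjusted p = 0.366). Khdc1a, Nrgn and Adamts14 completed this set, with log2 folds of 4.82, 4.16 and 3.68. At the other end, 7 genes had 0 UMIs in the NK cells of both libraries. The T cell surface genes Cd6 (159 and 148 CPM in T cells), Cd5 (144 and 133 CPM) and Cd8b1 (57.1 and 125 CPM) were at least 27.6-fold, 24.8-fold and 16.8-fold lower in NK cells, with 3 counts over both libraries as the NK limit. Trat1, Cd40lg, Dapl1 and Izumo1r were the other 4. Of 13 T cell markers outside the rule, 12 were higher in T cells, and Trbc1 was the exception (log2 fold 0.16, adjusted p = 0.733).

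NK cells mature from a CD27-positive to a CD11b-positive stage, and ILC1 differ by CD49a (Itga1) and by lacking Eomes, so the stage genes were counted per cell. Since detection rises with depth, cells were also thinned to 2000 UMIs, which left out 13 control and 5 LPCAT3-AKO NK cells and kept 80 and 57. Eomes was detected in 53 of 93 control NK cells, 57.0% (46.3 to 67.2, exact Clopper-Pearson interval), and in 25 of 62 LPCAT3-AKO NK cells, 40.3% (28.1 to 53.6). After thinning the shares were 43.8% (32.7 to 55.3) and 29.8% (18.4 to 43.4), against 5.41% and 2.82% of T cells. The intervals of the libraries overlapped. Tbx21 was detected in 43.0% and 40.3% of NK cells, and Eomes and Tbx21 together in 26 control and 10 LPCAT3-AKO cells. Cd27 was detected in 51.6% of control and 62.9% of LPCAT3-AKO NK cells, and in 46.2% and 47.4% after thinning. Itgam, which encodes CD11b, was detected in 39.8% and 38.7%, and in 28.8% (19.2 to 40.0) and 17.5% (8.75 to 29.9) after thinning. Both genes together were seen in 17 control and 12 LPCAT3-AKO cells, Cd27 without Itgam in 31 and 27, and Itgam without Cd27 in 20 and 12. Klrg1, a late maturation receptor, was detected in 22.6% and 24.2%, while S1pr5 and Cx3cr1, of circulating mature NK cells, were detected in at most 4 cells of either library.

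At least 1 of the 14 ILC1 and tissue residency genes was detected in 69.9% of control and 67.7% of LPCAT3-AKO NK cells, most often Rgs1, which was seen in 49 and 29 cells. Itga1 was detected in 3 of 93 control and 9 of 62 LPCAT3-AKO NK cells, 3.23% (0.670 to 9.14) and 14.5% (6.86 to 25.8). After thinning the shares were 1.25% (0.0316 to 6.77) and 10.5% (3.96 to 21.5), against 12.6% and 7.04% of T cells and 2.10% and 2.30% of Dcn-rich cells. Of the 9 LPCAT3-AKO cells with Itga1, 1 also had Eomes, 6 had Itga2 and 3 had Itgam. Cd69, an early activation and residency marker, was seen in 13 and 8 NK cells, Cxcr6 in 4 and 1 and Cd200r1 in 4 and 5, and Itgae and Zfp683 had 0 UMIs in NK cells of either library. Against T cells, 1 of 10 tested ILC1 and residency genes was higher in NK cells (Rgs1, log2 fold 0.79, adjusted p = 0.0310) and 3 were lower, namely Il7r, Cxcr6 and Inpp4b.

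**Figure D3:**
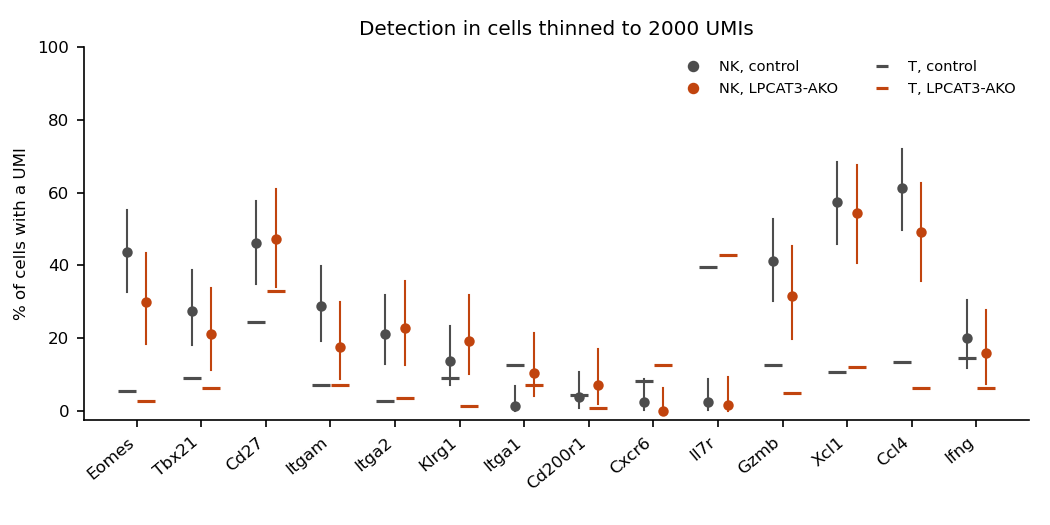
Share of NK cells (points, with exact 95% Clopper-Pearson intervals) and T cells (dashes) with at least 1 UMI of a gene after each cell was thinned to 2000 UMIs, in the control (grey) and LPCAT3-AKO (orange) library. The intervals of the 2 libraries overlap for each gene drawn, and Il7r is the gene whose T cell dashes lie farthest above the NK points.

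NK cells made up a smaller part of the LPCAT3-AKO library. Of 12426 kept control cells 93 were NK cells, 0.748% (0.604 to 0.916). Of 11664 kept LPCAT3-AKO cells 62 were, 0.532% (0.408 to 0.681). The ratio of the shares was 0.710 (0.507 to 0.990). T cells were the larger share there, with 0.958% of control and 1.31% of LPCAT3-AKO cells and a ratio of 1.37 (1.07 to 1.76), so NK cells were 43.9% of NK plus T cells among control cells and 28.8% among LPCAT3-AKO cells (ratio 0.657, 0.469 to 0.916). Among cells with fewer than 10 C1q and 10 Dcn UMIs, which leaves the macrophage and stromal shares aside, the ratio was 0.681 (0.486 to 0.950). Without the mixed cells, 87 and 57 NK cells gave a ratio of 0.698 (0.491 to 0.986). These are cells that passed a count of cytotoxic UMIs, and the upper ends of the intervals lie close to 1.

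Between the libraries, the chemokine genes Ccl5, Ccl4 and Ccl3, Ifng, Eomes and the Ly49 gene Klra4 were lower in the NK cells of the LPCAT3-AKO library, and the integrin gene Itgb1 and the NF-kB regulator Nfkbid were higher. A gene was called by size, at 20 CPM or more in the higher library, a ratio past 1.5 in either direction and a counting interval without 1. Of 6664 genes open to this rule, 281 (4.22%) were higher in LPCAT3-AKO cells and 309 (4.64%) lower, with a median log2 ratio of 0.0036 on CPM plus 1. The same rule called 273 (4.29%) and 327 (5.14%) in T cells, and 89 (1.35%) and 37 (0.561%) in all other kept cells. Many NK calls rested on few cells: in 23 of the higher and 82 of the lower genes, at least 80% of the UMIs came from 1 cell. Without the mixed cells 173 (2.67%) were higher and 167 (2.58%) lower. A call was kept by 85 higher and 86 lower genes when mixed cells were left out, when the cell with the most UMIs of each gene was left out, and as a mean over cells. The mean over cells has no counting interval of its own. There the interval of the summed counts was reused, and only the level and the ratio were rechecked. Genes called robust to single cells below are those that kept the call in all 3, a measure chosen after the values had been seen. The measure leaves in any RNA of other cells that is spread thinly over many NK cells. The macrophage markers Apoe and Pf4 were among the lower genes it kept. Apoe had 349 and 144 CPM in NK cells and 3647 and 2262 CPM in the other kept cells.

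Of 10 cytokine and chemokine genes open to the size rule, 4 were lower and 2 higher in LPCAT3-AKO cells, and the 4 lower ones were robust to single cells. Ccl5 had 10652 CPM (10288 to 11025) in control and 6254 CPM (5939 to 6582) in LPCAT3-AKO NK cells, a log2 ratio of -0.77 (interval of the ratio 0.552 to 0.625). Per cell, control NK cells had 5 to 118 Ccl5 UMIs with a median of 32, and LPCAT3-AKO NK cells had 0 to 83 with a median of 20.5. Ccl5 was also lower in T cells (log2 ratio -1.08) and in the other kept cells (40.8 and 25.01 CPM, -0.69). Ccl4 had 1178 CPM (1059 to 1307) and 492 CPM (407 to 590.3), a log2 ratio of -1.26, and was detected in 60 of 93 and 34 of 62 cells. The log2 ratio of Ccl4 was -0.52 in T cells (interval of the ratio 0.480 to 1.004) and -0.49 in the other kept cells. Ccl3 had 217 and 89.1 CPM (log2 ratio -1.28), with log2 ratios of -1.47 in T cells and -0.40 in the other kept cells. Ifng had 138 and 63.6 CPM (log2 ratio -1.11, interval of the ratio 0.237 to 0.847). Ifng was found in 20 control and 11 LPCAT3-AKO cells, and in T cells it had 131 and 26.7 CPM. Ccl3 and Ifng kept their sign but not the call when cells were thinned to 2000 UMIs (-0.85 and -0.71). Without the NK cells that had 1 Cd3 UMI, Ifng was not called (-0.82). Of the control cells with Ifng, 17 of 20 also held Ccl4, and of the LPCAT3-AKO cells 4 of 11. Xcl1 did not follow, at 750.5 and 742 CPM (interval of the ratio 0.808 to 1.21). The 2 higher genes were Tnf and Areg, and neither was called without the mixed cells: Tnf had 19.7 and 119 CPM with them and 19.9 and 16.4 CPM without, and Areg 19.7 and 110.3 CPM with them and 19.9 and 27.4 CPM without.

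Among transcription factors, 3 of 22 were lower and 0 higher. Eomes had 349 CPM (286 to 422) in control and 182 CPM (132 to 246) in LPCAT3-AKO NK cells, a log2 ratio of -0.93, and -0.77 without mixed cells. With cells thinned to 2000 UMIs its log2 ratio was -0.28 and it was not called. Tox, which supports early NK development, had 75.7 and 29.7 CPM (log2 ratio -1.32), but was not called at a cytotoxic sum of 3 or more (-1.06), at 8 or more (-0.98) or after thinning. Klf2, a factor of quiescence and egress, had 336 and 136 CPM with the mixed cells and 199 and 137 CPM without, where it was not called. Tbx21 (158 and 144 CPM) and Irf8 (1086 and 942 CPM) were not called. Hhex, a homeobox factor known in NK cell survival and named here after its values were seen, had 135 and 67.9 CPM (log2 ratio -0.98), and was not called after thinning or at a cytotoxic sum of 8 or more.

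Of 13 genes listed as inhibitory receptors and checkpoints, 2 were lower and 0 higher, and their median log2 ratio was -0.31. The list also held the activating Ly49 genes Klra4 and Klra8, so it does not describe inhibitory receptors alone. Klra4 had 665 CPM (576 to 763) in control and 318 CPM (250.3 to 399) in LPCAT3-AKO NK cells, a log2 ratio of -1.06, and was detected in 57 of 93 and 30 of 62 cells. Klra3 had 88.9 and 38.2 CPM and lost the call without the mixed cells (-1.05). Klra7, at 484 and 373 CPM, and Klrd1, at 622 and 670.4 CPM, were not called. Activating receptors outside the Ly49 family had a median log2 ratio of 0.08 over 10 members. Of these, Klrc2 was lower (197 and 123 CPM, not called without mixed cells), and Ncr1 and Klrk1 were not called. The receptor for interleukin-10, Il10ra, had 88.9 and 25.5 CPM (log2 ratio -1.76), detected in 20 control and 5 LPCAT3-AKO cells. Il2rb, at 1172 and 1239 CPM, was not called.

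Granule genes had 4 of 14 higher and 0 lower, a count that rested on few cells. Lamp1 (105 and 187 CPM) and Ctsc (109 and 191 CPM) were not called without mixed cells, where Lamp1 had 99.3 and 109 CPM. Unc13d, which primes granules for release, had 6.58 and 38.2 CPM in 2 and 8 cells, and without mixed cells it was not called (7.95 and 38.3 CPM). Gzmc, a granzyme of activated lymphocytes, had 0 UMIs in control and 136 CPM in LPCAT3-AKO NK cells, at least 13.7-fold higher with 3 counts as the limit, but 93.8% of its UMIs lay in 1 of 3 cells. Granzymes of this cluster are close copies, so the split between them is uncertain. Gzmb, at 431 and 335 CPM, was not called.

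Of 9 ILC1 and residency genes, 2 were higher and 0 lower, namely Itga1 and Il7r, and Il7r was not called without mixed cells. Of 16 homing and adhesion genes, Itgb1 was higher and S1pr1 lower. Itgb1, the integrin beta chain that pairs with CD49a and CD49b, had 395 CPM (327 to 472) in control and 641 CPM (543 to 751) in LPCAT3-AKO NK cells, a log2 ratio of 0.70 (interval of the ratio 1.27 to 2.08). It was detected in 61 of 93 and 54 of 62 cells, and its log2 ratio was -0.69 in T cells and 0.05 in the other kept cells. Itga1 had 19.7 and 76.4 CPM (log2 ratio 1.90, interval of the ratio 1.47 to 11.9), from 3 and 9 cells. At a cytotoxic sum of 3 or more its log2 ratio was 0.97 and it was not called. Over all control NK cells, 66.7% of its UMIs lay in 1 cell. Without mixed cells its levels were 3.97 and 71.1 CPM, the control value lying under the limit of 3 counts. Of the list of circulating mature NK genes, 3 of 11 were lower and 0 higher, namely Eomes, Klf2 and S1pr1, of which Eomes kept its call without mixed cells.

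**Figure D4:**
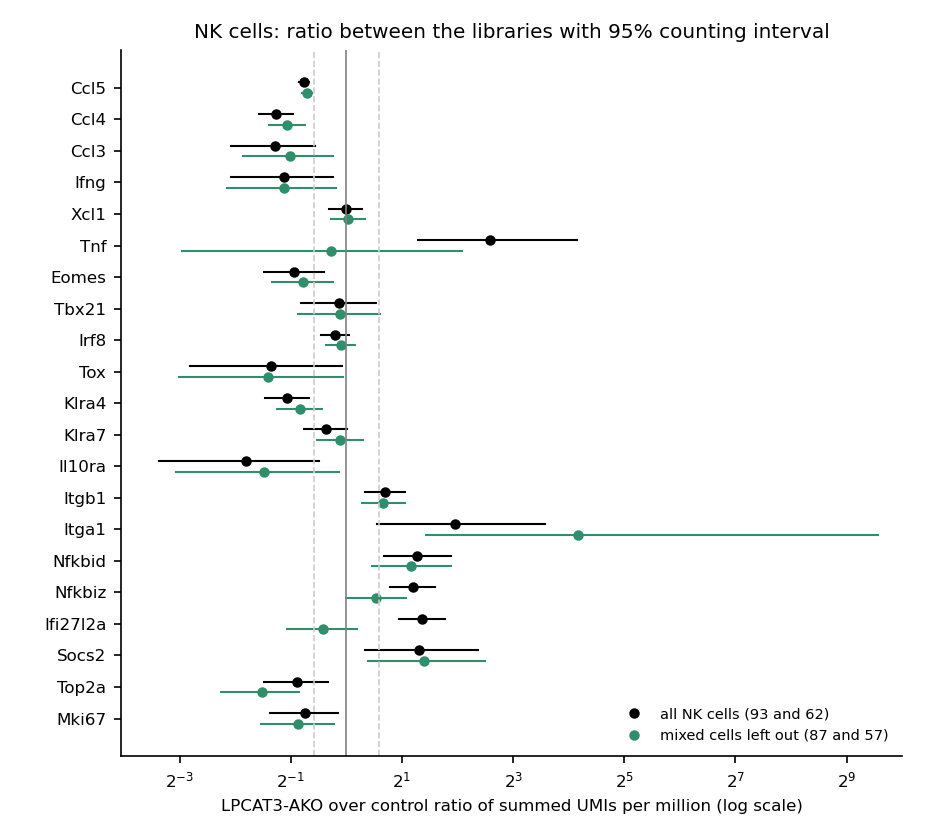
Ratio of LPCAT3-AKO over control levels in NK cells, on a log axis with 95% counting intervals, for all NK cells (black) and without the mixed cells (green), with dashed lines at a ratio of 1.5 either way. Ccl5, Ccl4, Ccl3, Ifng, Eomes and Klra4 lie to the left in both sets, Itgb1 and Nfkbid to the right in both, and Tnf and Ifi27l2a change sides between them.

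Of 13 NF-kB feedback genes, 4 were higher and 0 lower, with a median log2 ratio of 0.48, and of these Nfkbid, which encodes a nuclear inhibitor of NF-kB, was robust to single cells. Nfkbid had 125 CPM (88.5 to 172) and 301 CPM (235 to 380.0), a log2 ratio of 1.26, and 0.14 in T cells. Nfkbiz had 273 and 624 CPM with the mixed cells, and 238 and 345 CPM without. Traf1, a signalling adaptor of TNF receptors named after its values were seen, had 115 and 297 CPM (log2 ratio 1.36), and after thinning 0.56 with no call. Of 31 interferon response genes, 7 were higher and 0 lower, with a median of 0.47. None of the 7 was robust to single cells, and 3 were called without the mixed cells. Ifi27l2a had 253 and 649 CPM with them and 250.4 and 186 CPM without. Irf9, which carries type I interferon signals and stood outside that list, had 36.2 and 119 CPM in 9 and 22 cells (log2 ratio 1.69). Socs2, a brake on JAK-STAT signalling, had 46.1 and 115 CPM (log2 ratio 1.30), and was not called after thinning (0.98) or at a cytotoxic sum of 8 or more (1.04).

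Of 25 cell division genes, 6 were lower and 1 higher, with a median log2 ratio of -0.62, and 11 were lower without the mixed cells but 1 when cells were thinned to 2000 UMIs. Top2a had 299.5 CPM in 10 control and 161 CPM in 7 LPCAT3-AKO cells (log2 ratio -0.89), and the proliferation marker Mki67 250.2 CPM in 11 and 148 CPM in 3 cells (-0.75). Without the NK cells that had 1 Cd3 UMI neither was called (-0.48 for Top2a and -0.41 for Mki67), Top2a was not called after thinning, and Mki67 not at a cytotoxic sum of 8 or more. These levels come from few cells, and 51.4% of the LPCAT3-AKO Mki67 UMIs lay in 1 cell. Mki67 was also lower in T cells (-2.10) and stood at 0.88 in the other kept cells. The chaperone Hspa1b had 181 and 38.2 CPM (log2 ratio -2.22), and 154 and 31.1 CPM in T cells. Of 26 immediate-early genes, which tissue dissociation also induces, 3 were higher and 2 lower, and 0 were called in either direction without the mixed cells.

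The lowest end of the list of called genes was set by single cells. The 10 lowest genes by the naming rule were Acta1, Igfbp7, Myh4, Mylpf, Tnni2, Ttn, Flt1, Atp2a1, Neb and Pvalb, of which 8 are muscle genes, and each had at least 97.0% of its control UMIs in 1 cell. Acta1, for example, had 708 CPM in the control and 0 UMIs in the LPCAT3-AKO NK cells, with 99.5% of the UMIs in 1 cell. Endothelial markers summed to 655 and 33.9 CPM, with 95.5% of the control UMIs in 1 cell, and to 31.8 and 43.8 CPM without mixed cells. The 10 highest were Gzmc, Il1rn, Gzme, Clec4a2, Socs6, Batf3, Rgs10, Lyz1, Zfp318 and Il31ra. Without mixed cells 7 of them were not called, and Gzmc, Gzme and Zfp318 were. Gzmc, Gzme and Zfp318 each lost the call when the top cell of each gene was left out. Gzme and Il31ra had 100% of their LPCAT3-AKO UMIs in 1 cell, and Gzmc 93.8%. Rgs10, a regulator of G protein signalling also among the 10 highest, was seen in 6 LPCAT3-AKO and 0 control NK cells. Its level was 33.9 CPM in LPCAT3-AKO NK cells and 100.3 and 126 CPM in T cells. Without mixed cells Rgs10 had 0 and 21.9 CPM and was not called, and it also lost the call with cells thinned to 2000 UMIs, as a mean over cells and at a cytotoxic sum of 8 or more. Lyz1, a lysozyme of myeloid cells, had 9.87 and 293 CPM with 87.0% of the LPCAT3-AKO UMIs in 1 cell, and 11.9 and 21.9 CPM without mixed cells, where it was not called.

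Lpcat3, the targeted gene, was near the detection limit in NK cells. It had 13.2 CPM in control and 8.49 CPM in LPCAT3-AKO NK cells, from 4 and 2 cells, with an interval of the ratio of 0.0583 to 4.50. In the other kept cells it had 27.8 and 30.9 CPM. The Cre driver is not given in the sources used here, so it is unknown whether NK cells carry the deletion. The counted tags may also come from a stretch that the deletion leaves in place. These values therefore do not check the deletion. Of 13 phospholipid remodelling and phosphatidylcholine synthesis genes open to the size rule, 0 were higher and 0 lower, with a median log2 ratio of -0.16. Choline kinase alpha (Chka) had 135 and 136 CPM and the rate-limiting enzyme gene of phosphatidylcholine synthesis, Pcyt1a, had 52.7 and 50.9 CPM. Agpat3, an acyltransferase, had 85.6 and 55.2 CPM (interval of the ratio 0.304 to 1.30). Of 9 fatty acid desaturation and elongation genes 1 was higher, the elongase Elovl5, at 29.6 and 84.9 CPM in 8 and 17 cells, and it lost the call without the mixed cells (35.8 and 82.1 CPM).

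What NK cells read on their neighbours was measured in the same libraries. H2-T23, which encodes the Qa-1 molecule that NKG2A reads, had 395 and 259 CPM in NK cells (log2 ratio -0.61, and -0.58 with no call at a cytotoxic sum of 3 or more), 143 and 166 CPM in Dcn-rich cells and 314 and 321 CPM in C1q-rich cells. It was the member called among 15 MHC class I genes, and H2-K1, at 2706 and 2652 CPM in NK cells, was not. The NKG2D ligand genes were scarce: H60b had 0.0340 and 0.232 CPM in Dcn-rich cells and 0.603 and 2.42 CPM in C1q-rich cells. Ulbp1 had 1.51 and 1.72 CPM in Dcn-rich cells and 8.05 and 14.7 CPM in C1q-rich cells. Clec2d, the ligand of an inhibitory NKR-P1 receptor, had 109 and 195 CPM in NK cells (log2 ratio 0.84, not called after thinning) and 339 and 302 CPM in Dcn-rich cells. Il12a and Il12b, the chains of interleukin-12, had 0 UMIs in NK cells and at most 4.62 CPM in the other kept cells.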

How the data were processed

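The deposited files hold, for each library, the UMI counts per gene and barcode of 32285 genes, which the authors made with Cell Ranger 6.1.2 on mm10, with Seurat 4.10 also listed, per the submitters' processing notes. The gene annotation release is not given in the sources used here, and 78 entries share a symbol with another. Counts were used as deposited. The members, the 37 gene lists and the rules were chosen with earlier results of these data known.

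Cells were chosen by the rules in the report. Scrublet (scanpy 1.11.5) removed 1 NK cell per library and its own threshold marked 0 NK cells, so doublets were kept and their removal was tried as an alternative. UMIs were summed per cell type and library and scaled to 1000000 (CPM). NK and T cells were compared with edgeR 4.0.16 (TMM, filterByExpr, quasi-likelihood test, library as block, Benjamini-Hochberg over 5758 genes, threshold 0.05), with 1 residual degree of freedom. DESeq2 1.42.0 was an alternative. The test was also run on sums simulated with a fixed dispersion, with no single cells modelled. That run cannot check how the test handles mixed cells. Between libraries there was no test: ratios have exact binomial intervals, levels exact Poisson intervals and shares Clopper-Pearson intervals, all at 95% and for counting error only. Log2 ratios used CPM plus 1.

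Named genes were the 15 highest and 10 lowest log2 folds against T cells at 50 CPM or more, the 10 highest and 10 lowest log2 ratios between libraries, Lpcat3, the 5 markers of the label, members of the receptor, granule, cytokine, transcription factor, circulating NK and ILC1 lists, and up to 4 members of each other list by CPM. Genes of the cell rules, mitochondrial, ribosomal, haemoglobin and immunoglobulin genes, predicted genes and Xist were left out of the ranked names. Other genes named were chosen after their values were seen: Hhex, Irf9, Traf1 and those described with the signals on other cells. Some results are not reported here.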

Additional observations from a re-analysis of the deposited data

How the results depend on the processing

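The lower share of NK cells kept its direction under all 6 alternatives, with ratios of LPCAT3-AKO over control from 0.657 (as a share of NK plus T cells) to 0.707 (a cytotoxic sum of 3 or more). Counts of genes depended on the settings. With a cytotoxic sum of 8 or more, 176 genes were higher and 171 lower in LPCAT3-AKO NK cells, and 283 were higher in NK and 437 in T cells. Without mixed cells the counts were 173, 167, 266 and 319. Thinned to 2000 UMIs, 147 were higher and 113 lower, 183 were higher without the top cell of each gene, and 200 lower at a minimum of 50 CPM. DESeq2 called 43 higher in NK and 20 in T cells. Genes higher in T cells numbered 115 at a cytotoxic sum of 3 or more, 118 without the library block and 362 without the low-count filter. Thinning moved detection to 43.8% for Eomes and 28.8% for Itgam in the control, and to 17.5% for Itgam and 47.4% for Cd27 in the LPCAT3-AKO library.

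Of 95 genes followed between the libraries, 12 changed sign somewhere. Without mixed cells the log2 ratio was -0.26 for Tnf, -0.43 for Ifi27l2a, -0.37 for Ier3, 2.69 for Hspb1, 0.24 for Aldoa, -1.11 for H2-Ab1, -0.45 for H2-Eb1, 0.19 for Pecam1 and 2.69 for Plvap. With a cytotoxic sum of 8 or more it was -3.64 for Il7r, -0.73 for Ier3, 0.42 for Hspb1, 0.41 for Ly6a and 2.69 for Plvap. Thinned, it was -0.095 for Isg15 and -0.063 for Ifi27l2a. Against T cells, 3 of 102 genes changed sign without mixed cells: Zeb2 (0.82), Cd74 (0.0063) and H2-Aa (0.30), and 51 lost the call under at least 1 alternative. The cause was not tested beyond what each alternative leaves out. Genotypes could not be compared in pairs because each has 1 library, whereas NK and T cells were compared with the library as block. Depth limits genes under 9.87 CPM in control and 12.7 CPM in LPCAT3-AKO NK cells.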
